A study of Mus musculus with 2 samples.

Results

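Natural killer (NK) cells of the postischemic mouse kidney were taken from single-cell RNA libraries as barcodes selected on the unique molecular identifiers (UMIs) of 3 genes, Ncr1, Klrb1c and Gzma. A barcode was a member if these genes summed to at least 2 UMIs, if the CD3 chains Cd3d, Cd3e and Cd3g summed to at most 1 UMI, if the complement genes C1qa, C1qb and C1qc stayed under 10 per 10000 UMIs, and if the cycling genes Mki67 and Top2a stayed under 4 UMIs. The rule found 97 NK barcodes among 17701 barcodes that passed quality limits, 47 of 8468 in the Cre- library and 50 of 9233 in the PHDTiEC library.

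The study compared the kidney of 1 Cre- mouse with that of 1 littermate (PHDTiEC) that carried Cdh5-CreERT2 and was Phd1f/f, Phd2f/f and Phd3f/f. Both were males of 8 to 10 weeks whose kidney was analysed on day 14 after 25 min of ischemia of 1 kidney, and both received tamoxifen after the injury, in 4 injections of 3 mg. The Cdh5 promoter drives Cre in endothelial cells, so the NK cells were not the cells meant to lose the 3 oxygen sensors, the prolyl hydroxylases PHD1, PHD2 and PHD3. Whether the Cre- mouse also carried the floxed alleles is not stated in the labels. With 1 library and 1 mouse per genotype no difference between the genotypes could be tested, so no p-value is given, and every interval below covers counting error only.

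NK cells are innate lymphocytes that kill stressed or infected cells without the rearranged receptors of T cells. They carry granules of perforin (Prf1), which makes pores in the target membrane, and granzymes, serine proteases that pass through those pores and start cell death. Their response is set by the balance between activating receptors, such as NKp46 (Ncr1) and NKG2D (Klrk1), and inhibitory receptors for MHC class I. The inhibitory ones include CD94/NKG2A (Klrd1, Klrc1) and many members of the Ly49 family (Klra genes), whose members Klra4 and Klra8 are activating. Relatives of the NK cell, the type 1 innate lymphoid cells (ILC1), live in tissues, carry Itga1, Cxcr6 and Il7r and are poor in Eomes.

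The libraries held 136004367 (Cre-) and 146758812 (PHDTiEC) UMIs, and no NK barcode sequence was present in both libraries. The library labelled PHDTiEC did not show lower counts of the targeted genes in endothelial barcodes, where Egln1 (PHD2) was 68.7 CPM (UMIs of a gene per 1000000 UMIs of the class) in Cre- and 168 in PHDTiEC, Egln2 (PHD1) was 37.2 and 37.6 CPM, and Egln3 (PHD3) was 21.8 and 124 CPM. Counts per gene cannot tell whether a floxed exon was missing. In NK barcodes the 3 genes had 12, 7 and 1 UMIs in Cre- and 16, 4 and 6 UMIs in PHDTiEC, too few to compare.

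NK barcodes were a small share of both libraries, and the shares differed by less than counting error. They were 0.555% of kept barcodes in Cre- (95% Clopper-Pearson interval, 0.408 to 0.737) and 0.542% in PHDTiEC (0.402 to 0.713), a ratio of 0.976 (0.642 to 1.49). Among barcodes with a UMI of the leukocyte gene Ptprc, the shares were 0.974% and 1.02%, with a ratio of 1.04 (0.680 to 1.61). Among NK, T and γδ T barcodes together they were 8.19% and 7.32%, with a ratio of 0.894 (0.588 to 1.36). A change in NK abundance smaller than these intervals was not detectable at this number of cells. All NK barcodes together held 222775 UMIs in Cre- and 221188 in PHDTiEC, which limits the depth of every value that follows. They held a median of 2923 UMIs and 1241 genes in Cre- (1439 to 36486 UMIs) and 3140 UMIs and 1328 genes in PHDTiEC (760 to 21544 UMIs).

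The label was checked against NK markers that the rule did not use. Each of the 97 barcodes carried UMIs of these 18 markers, from 10 to 237 UMIs per barcode in Cre- (median 90) and from 29 to 184 in PHDTiEC (median 80.5). One marker of the 18, Klri2, had no UMI in either library. The granule membrane gene Nkg7 was found in 44 of 47 and 49 of 50 barcodes, Prf1 in 31 and 32, Klrd1 in 40 and 45, Klrk1 in 37 and 44, and the signalling adaptor Fcer1g in 47 and 50. The T-box factors that specify NK cells were sparser, with Eomes in 20 and 26 barcodes and Tbx21 in 14 and 14. Of 17 T cell genes, the CD3 chain Cd3e and Cd4, Cd8b1, Cd5 and Tcrg-C2 were at 0 in all 97 barcodes. The 17 genes nevertheless summed to 145 and 151 UMIs, with at least 5 UMIs in 14 and 12 barcodes. Cd28 had a UMI in 9 and 8 barcodes, and Trdc or a Tcrg gene in 12 of 47 and 6 of 50. A UMI of a constant gene of the αβ T cell receptor was present in 30 of 47 and 41 of 50 barcodes, mainly from Trbc1, which stood at 288 CPM in NK and at 349 CPM in T barcodes, while Trbc2 stood at 173 and 853 CPM. The basophil genes Mcpt8, Cd200r3, Cpa3 and Ms4a2 and the dendritic cell genes Xcr1, Clec9a, Flt3 and Cd209a were at 0. The other 2 genes of the dendritic list, H2-Aa and H2-Ab1, summed to 135 and 27 UMIs in 21 and 15 barcodes. They reached 5 or more UMIs in 4 and 1 barcodes. The defining NK markers were thus present and the CD3 chains, which the rule limited, nearly absent.

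The rule was met by a wide margin in most members. The summed UMIs of Ncr1, Klrb1c and Gzma had a median of 22 in Cre- (2 to 114) and 23.5 in PHDTiEC (2 to 55), and 32 and 39 barcodes had 10 or more. Just inside the threshold, 8 Cre- and 4 PHDTiEC barcodes had 2 or 3 rule UMIs, and their summed UMIs of 5 other NK genes (Prf1, Nkg7, Klrd1, Klre1 and Klrk1) had medians of 7.5 and 15.5. Just outside it, 16 and 21 barcodes had 1 rule UMI and a median of 0 UMIs of those 5 genes, but 2 and 8 of them held 2 or more (up to 16 and 23 UMIs). Among 4768 and 5165 barcodes with 0 rule UMIs that met the other limits, 49 and 69 also held 2 or more UMIs of those genes, so barcodes with NK markers also lay outside the rule, and the shares above are those of barcodes found by it. Gzma supplied most of the rule UMIs, 990 of 1106 in Cre- and 1088 of 1217 in PHDTiEC.

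Of the 97 NK barcodes, 10 carried RNA of another cell type and weighed heavily on the sums. A barcode was called mixed if it held at least 5 UMIs of the neutrophil, B cell, endothelial, stromal, dendritic or basophil markers, or at least 20 UMIs of the tubule markers. This was so for 6 of 47 Cre- barcodes, which supplied 43.4% of the NK UMIs there, and for 4 of 50 PHDTiEC barcodes, which supplied 30.5%. Their median depth was 10160.5 and 18184.5 UMIs, against 2682 and 3029 for the other barcodes. Because CPM divides by all NK UMIs, mixed barcodes lower the CPM of genes scarce in them, and more so in Cre-. Over all NK barcodes this alone raises the ratio of such genes. A single Cre- barcode held 115 of the 121 endothelial marker UMIs of its library, and a single PHDTiEC barcode held 157 of the 165 stromal marker UMIs. Dendritic cell markers summed to 135 and 27 UMIs and macrophage markers to 297 and 147, and these sums were 21 and 15 and 72 and 82 UMIs without mixed barcodes. Comparisons between the libraries are therefore given over all NK barcodes and again over the 41 Cre- and 46 PHDTiEC barcodes that were not mixed. No doublet caller was run.

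**Figure D1:**
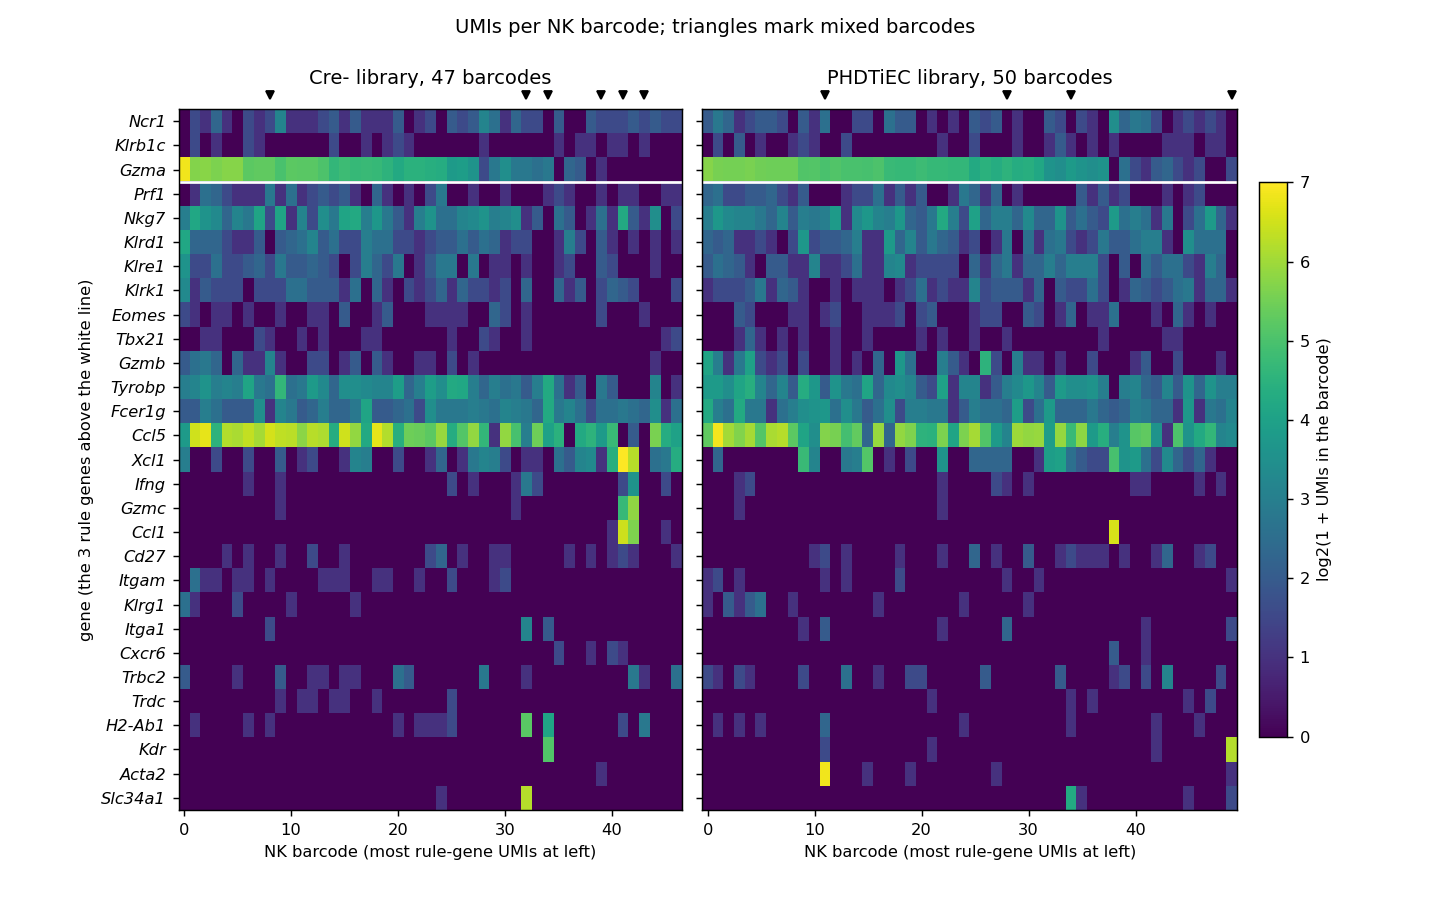
UMIs of 29 genes (rows) in each NK barcode (columns, ordered by the summed UMIs of the rule genes), with colour on the scale log2(1 + UMIs), for 47 Cre- and 50 PHDTiEC barcodes; triangles mark mixed barcodes. Ccl5, Nkg7, Tyrobp and Fcer1g run through nearly all barcodes, Gzma is low or missing at the right of each panel, and Kdr, Acta2 and Slc34a1 are highest in mixed barcodes.

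Receptor, granule and cytokine genes had the highest levels in NK relative to T barcodes. Among genes with at least 50 NK UMIs, the highest ratios of NK over T barcodes after the rule gene Ncr1 (log2 ratio 8.58) belonged to Klra4 (6.99), Gzma (6.70, a rule gene), Klrb1a (6.49), Gzmc (6.36), Csf2 (6.29), Klra1 (5.95), Klre1 (5.74), Ccl1 (5.70), Klrb1f (5.28), Klra7 (5.04), Nrgn (4.97), Prf1 (4.62), Irf8 (4.26) and Klrd1 (3.81). Gzmc, Csf2 and Ccl1 stood there through 3 barcodes, which held 81 of 85, 52 of 54 and 231 of 233 of their UMIs. Klra4, Klrb1a, Klra1, Klre1, Klrb1f, Klra7 and Klrd1 lie on chromosome 6, where the C-type lectin receptors of NK cells are clustered (GRCm38 coordinates, GENCODE vM21: Klrb1a at 128609227 to 128623533, Klrd1 at 129591782 to 129598775 and Klra1 at 130363917 to 130386874). The Klra genes are close copies of each other, so the split of reads among them is uncertain, as it is among the granzyme genes beside Gzmb on chromosome 14. At least 1 of the Ly49 genes had a UMI in 35 of 47 Cre- and 40 of 50 PHDTiEC barcodes.

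UMIs of 3 NK genes were rare in macrophages. Among these cells, which do not make them and had a median of 6981 and 7472 UMIs, a UMI of Gzma was found in 0.272% and 0.472% of barcodes, of Ncr1 in 0.136% and 0.157%, and of Prf1 in 0.136% and 0.283%. In NK barcodes Gzma was found in 80.9% and 94.0%, a share that the selection on Gzma raised, and Prf1, which the rule did not use, in 66.0% and 64.0%. T barcodes carried Prf1 in 8.20% and 6.88%, Klrd1 in 14.3% and 20.9% and Ctsw in 46.0% and 47.4%. Thinned to 1000 UMIs per barcode, the expected shares were 73.7% and 83.5% for Gzma and 34.0% and 38.4% for Prf1. Nkg7 and Ccl5 were shared with T cells (564 and 2641 CPM there against 1457 and 8456 in NK), whereas Tyrobp and Fcer1g were shared with macrophages (2281 and 2209 CPM against 1692 and 1304 in NK).

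**Figure D2:**
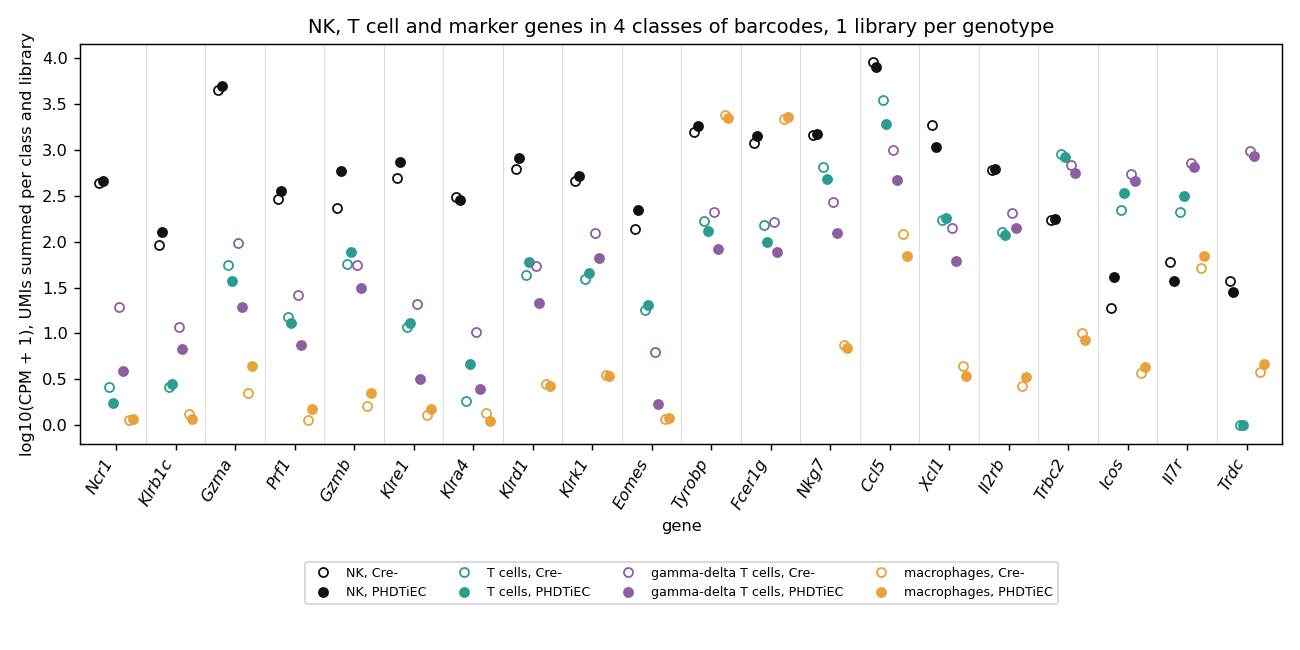
Level of 20 genes as log10(CPM + 1) in NK, T, γδ T and macrophage barcodes, with open points for Cre- and filled points for PHDTiEC (1 library each, no error bars). Prf1, Klre1 and Klra4 stand highest in NK barcodes in both libraries, and so do the rule genes Ncr1 and Gzma, on which these barcodes were selected. Trbc2, Icos and Il7r stand higher in both T cell classes. Trdc stands higher in γδ T barcodes, which were selected in part on Trdc, and is absent from T barcodes by their definition.

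The promoters of 2 rule genes, of perforin and of granzyme B are shown because these genes carry the identity of the cells and the difference between the libraries described further on. RefSeq sequences of GRCm38.p6 run from 250 bases before to 50 bases after the annotated start and are written 5′ to 3′ on the strand of the gene: Ncr1 at chr7:4337465-4337764 (plus strand, the first of 2 entries), Gzma at chr13:113100932-113101231 (minus), Prf1 at chr10:61297586-61297885 (plus) and Gzmb at chr14:56262285-56262584 (minus). Capitals mark matches on either strand to TCACAC (the T-box core, bound by Eomes and T-bet), TGTGGT (RUNX) and AGGAAG (ETS), and no matches overlapped.
Ncr1: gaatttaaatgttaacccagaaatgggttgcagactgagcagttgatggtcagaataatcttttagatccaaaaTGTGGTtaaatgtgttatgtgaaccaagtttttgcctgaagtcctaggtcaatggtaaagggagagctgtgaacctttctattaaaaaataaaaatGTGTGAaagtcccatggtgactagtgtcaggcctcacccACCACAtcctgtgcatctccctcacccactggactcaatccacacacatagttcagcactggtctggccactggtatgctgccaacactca
Gzma: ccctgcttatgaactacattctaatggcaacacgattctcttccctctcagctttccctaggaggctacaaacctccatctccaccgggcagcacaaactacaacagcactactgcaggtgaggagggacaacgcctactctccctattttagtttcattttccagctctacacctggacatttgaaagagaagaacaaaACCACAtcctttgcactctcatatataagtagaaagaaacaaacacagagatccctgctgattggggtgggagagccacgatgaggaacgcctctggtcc
Prf1: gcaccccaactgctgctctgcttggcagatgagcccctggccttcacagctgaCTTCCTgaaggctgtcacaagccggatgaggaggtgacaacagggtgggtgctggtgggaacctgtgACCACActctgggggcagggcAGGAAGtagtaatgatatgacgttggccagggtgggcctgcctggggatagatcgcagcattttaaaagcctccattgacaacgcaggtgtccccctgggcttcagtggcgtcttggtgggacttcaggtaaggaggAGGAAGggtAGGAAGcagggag
Gzmb: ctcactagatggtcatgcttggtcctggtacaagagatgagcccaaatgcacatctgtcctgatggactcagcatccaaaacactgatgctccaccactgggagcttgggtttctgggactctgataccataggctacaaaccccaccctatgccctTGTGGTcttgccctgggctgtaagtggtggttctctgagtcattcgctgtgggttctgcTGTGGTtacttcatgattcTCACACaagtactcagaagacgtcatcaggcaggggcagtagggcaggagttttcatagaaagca
The RUNX letters occurred in all 4 windows and in 16.8% of 32851 RefSeq promoters of this length. The T-box letters occurred in Ncr1, 80 bases before the start, and in Gzmb, 15 bases before it, and in 14.5% of all promoters. The ETS letters occurred only in Prf1 among the 4 and in 35.4% of all promoters. A match describes these letters and is not a site shown to be bound.

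Gzma and Ccl5 were the most abundant effector transcripts. Gzma, which encodes granzyme A (chromosome 13, 113093825 to 113100981), ranged from 0 to 114 UMIs per barcode in Cre- (median 19) and from 0 to 52 in PHDTiEC (median 23). Its level was 4444 CPM (exact Poisson 95% interval, 4171 to 4730) and 4919 CPM (4631 to 5220.1). Ccl5, a chemokine that draws T cells and monocytes, ranged from 0 to 106 UMIs (median 37) and from 1 to 117 (median 33.5), at 8964 CPM (8575 to 9366) and 7943 CPM (7576 to 8324). The ranges over barcodes overlapped almost wholly for both genes. Prf1 ranged from 0 to 6 UMIs in both libraries (median 1 in each), at 287 CPM (221 to 367) and 353 CPM (279 to 440.1). Nkg7 was 1436 and 1478 CPM, and Ncr1 was 431 CPM (349 to 526) and 457 CPM (372 to 555).

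Gzmb, the gene of granzyme B, was higher in PHDTiEC, and in both libraries a few barcodes held many of its UMIs. It ranged from 0 to 8 UMIs per barcode in Cre- (median 0) and from 0 to 22 in PHDTiEC (median 1), and a UMI was found in 20 of 47 and 28 of 50 barcodes. Thinned to 1000 UMIs, the expected shares of barcodes with a UMI were 23.8% and 35.6%. In PHDTiEC 4 barcodes and in Cre- 0 barcodes held 10 or more Gzmb UMIs, and the ranges overlapped from 0 to 8. The sums were 51 and 129 UMIs, 229 CPM (170.5 to 301) in Cre- and 583 CPM (487 to 693) in PHDTiEC, a log2 ratio of PHDTiEC over Cre- of 1.35 (0.87 to 1.85). The 4 PHDTiEC barcodes richest in Gzmb held 65 of the 129 UMIs, and the 4 richest Cre- barcodes 23 of 51. The other 46 PHDTiEC barcodes held 64 UMIs, 304 CPM, a log2 ratio over all Cre- barcodes of 0.41 (-0.14 to 0.97). Leaving out the 4 richest barcodes of each library, 28 UMIs in 43 Cre- and 64 in 46 PHDTiEC barcodes gave a log2 ratio of 1.14 (0.48 to 1.84). Without mixed barcodes the sums were 43 and 129 UMIs and the log2 ratio was 1.30 (0.79 to 1.83), and over the alternatives that did not leave out barcodes rich in Gzmb it lay between 1.26 and 1.61. In T barcodes Gzmb stood at 65.9 CPM. Whether the difference belongs to the genotype or to the 2 mice cannot be told apart.

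**Figure D3:**
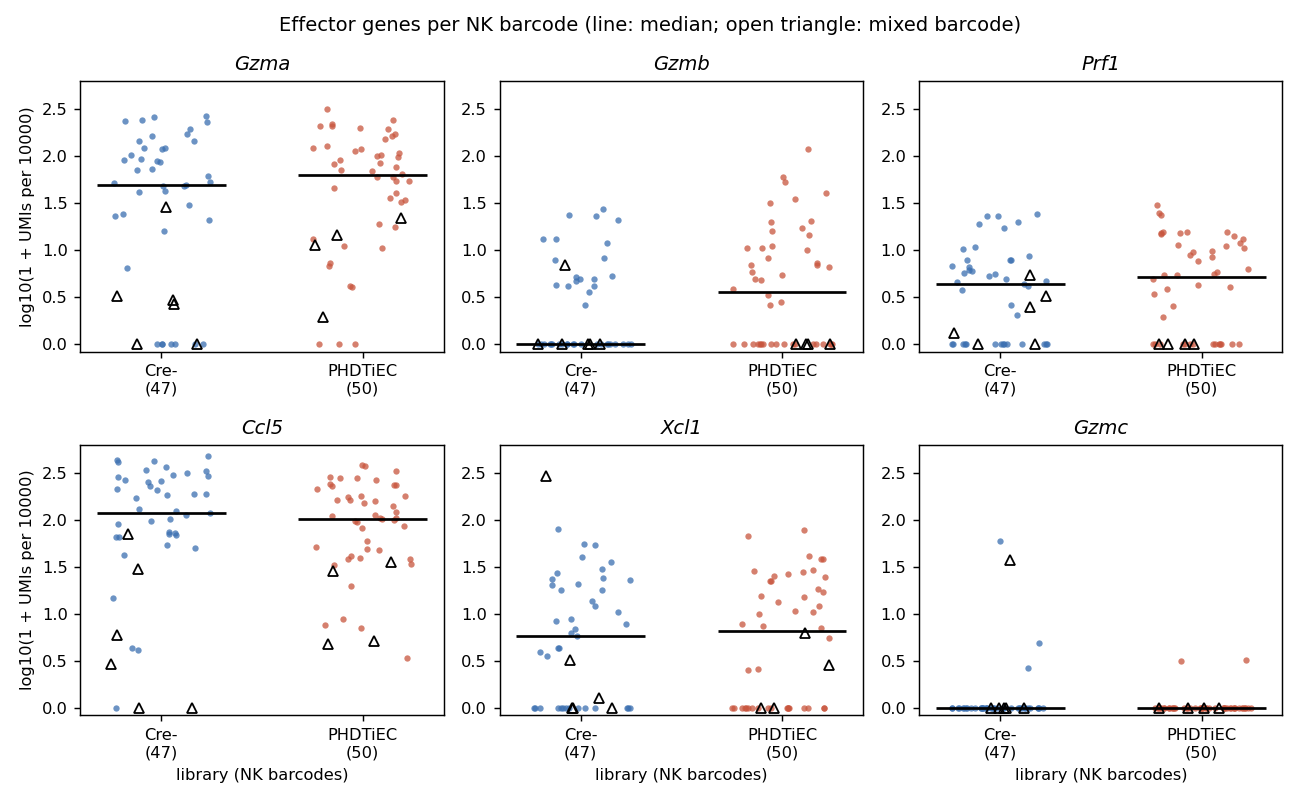
Level of 6 effector genes in each NK barcode as log10(1 + UMIs per 10000), for 47 Cre- and 50 PHDTiEC barcodes; black lines are medians and open triangles are mixed barcodes. Gzma, Prf1 and Ccl5 overlap between the libraries, Gzmb reaches higher in PHDTiEC, and Gzmc is high in 2 Cre- barcodes.

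Most other granule genes differed little between the libraries. Of 22 genes on the cytotoxic granule list, 13 had at least 50 UMIs, with a median log2 ratio of 0.15 over all NK barcodes and of -0.11 over 11 genes without mixed barcodes. The first of these medians is the ratio of the rule gene Gzma itself, and without Gzma the medians were 0.12 over 12 genes and -0.03 over 10. For comparison, the median over all 1255 genes with at least 50 UMIs was 0.05, and over the 724 such genes without mixed barcodes it was -0.02. Of these, 695 of 1255 were higher in PHDTiEC, and 349 of 724 without mixed barcodes. Prf1 had a log2 ratio of 0.30 (-0.20 to 0.80) and Gzma of 0.15 (0.02 to 0.27), which became -0.17 (-0.30 to -0.04) without mixed barcodes. The protease inhibitor Serpinb9, which shields the killer cell from its own granzyme B, had 120 and 137 UMIs (0.20, -0.16 to 0.57). Ctsw, a cathepsin of cytotoxic lymphocytes, had 73 and 115 UMIs (0.67, 0.23 to 1.11), and 63 and 108 without mixed barcodes (0.49, 0.03 to 0.96).

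Gzmc, the gene of granzyme C, had the lowest ratio of all genes counted but rested on few cells. Of its 83 Cre- UMIs, 56 lay in 1 barcode and 25 in another, while 2 PHDTiEC barcodes had 1 UMI each. These 2 Cre- barcodes and 1 PHDTiEC barcode shared a further set of cytokine transcripts. The first Cre- barcode, which was mixed, held 25 UMIs of Gzmc, 87 of the chemokine gene Ccl1, 198 of Xcl1, the ligand of the dendritic cell receptor Xcr1, and 11 of Csf2 (GM-CSF), with 0 of Gzma. The second held 56, 49, 75 and 14 UMIs of the same genes, together with 11 of Ifng, 43 of Ccl3 and 42 of Ccl4, again with 0 of Gzma. The PHDTiEC barcode held 95 UMIs of Ccl1, 30 of Xcl1 and 27 of Csf2, with 0 of Gzmc and Gzma and with 10 of Ncr1. These 3 barcodes thus supplied 231 of the 233 Ccl1 UMIs and 52 of the 54 Csf2 UMIs of all NK barcodes, and they were selected after their values were seen. They held no UMI of Gzmb or of Tyrobp, which was present in 42 of 47 and 49 of 50 NK barcodes. Il2ra was 1 and 3 UMIs in the Cre- pair and 0 in the third barcode. The second Cre- barcode also held 6 UMIs of Trbc2 and 1 of Trac, a gene with 2 UMIs over all NK barcodes of that library, and it met the rule through 3 UMIs of Ncr1.

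NK barcodes also differed among themselves along the level of Gzma in both libraries. Leaving out mixed barcodes, 28 Cre- and 35 PHDTiEC barcodes had at least 10 Gzma UMIs and 13 and 11 had fewer, at median depths of 2635 and 2756 UMIs against 2923 and 3303. The 10-UMI limit was set with the values in view, and since Ncr1 and Klrb1c served the rule together with Gzma, they are not compared. Of the Gzma-poor barcodes, 7 of 13 in Cre- and 3 of 11 in PHDTiEC held 0 Gzma UMIs and met the rule through Ncr1 or Klrb1c alone. The 2 parts were thus selected differently, and the share of this selection in their differences was not tested. The barcodes rich in Gzma were also rich in Gzmb and Prf1 and in some genes of mature NK cells. Gzmb was 500.5 and 23.7 CPM in Gzma-rich and Gzma-poor barcodes of Cre-, and 1133 and 152 CPM in PHDTiEC. Prf1 was 584 and 142 CPM in Cre- and 659 and 152 CPM in PHDTiEC, log2 ratios of 2.04 (0.81 to 3.55) and 2.12 (1.00 to 3.48). Ccl5 followed with log2 ratios of 1.58 (1.39 to 1.77) and 1.68 (1.46 to 1.90), and Irf8, a transcription factor of mature NK cells, with 1.38 (0.62 to 2.22) and 1.40 (0.75 to 2.12). Klrg1, a receptor of terminally mature NK cells, had 10 and 17 UMIs in the Gzma-rich barcodes of the libraries and 0 in the Gzma-poor ones, and the integrin gene Itgam had 19 and 8 against 1 and 0. Other genes of maturation did not follow, with Zeb2 at log2 ratios of -0.18 (-2.16 to 2.04) and 0.36 (-0.77 to 1.63) and Tbx21 at -0.41 (-2.06 to 1.37) and 1.58 (-0.54 to 4.76), and the interval for Itgam in PHDTiEC, from -0.45 upwards, also held 0. A count of 0 allows up to 3 UMIs. Other NK genes followed in part. Tyrobp (1.60 and 1.00), Nkg7 (1.09 and 0.80) and Klra4 (1.62 and 2.53) had intervals above 0 in both libraries. Klrd1 (1.11 and -0.003), Klre1 (2.79 and 0.47) and Klrk1 (0.91 and -0.04) had them in Cre- only. Fcer1g (0.18 and 0.92) had one in PHDTiEC only, and Il2rb (-0.37 and 0.28) in neither. The Gzma-poor barcodes were thus poorer in several NK markers, and whether all of them are NK cells was not tested.

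The barcodes poor in Gzma were richer in Ltb in both libraries, and other genes were less clear. The lymphotoxin gene Ltb was 734 CPM in the Gzma-poor and 47.7 CPM in the Gzma-rich barcodes of Cre-, and 825 and 158 CPM in PHDTiEC. Cd7 was 995 and 274 CPM in Cre- and 652 and 399 CPM in PHDTiEC. Cxcr6, a chemokine receptor of tissue-resident lymphocytes, had 5 and 4 UMIs in the Gzma-poor barcodes and 0 in the Gzma-rich ones, and Il7r had 4 and 6 UMIs against 1 and 0. Xcl1 was 3932 and 584 CPM in Cre-, where 1 barcode held 75 UMIs, and 1759 and 1374 CPM in PHDTiEC. The interval of the ratio held 0 for Cd7 and Xcl1 in PHDTiEC and for Il7r in Cre-. Ccl4 went in opposite directions in the libraries, at 1299 CPM in Gzma-rich and 2439 CPM in Gzma-poor barcodes of Cre- and at 1922 and 804 CPM in PHDTiEC. Some of these values rested on the barcodes rich in Gzmc or Ccl1, of which 1 in each library was among the Gzma-poor ones. Without them Xcl1 was 2782 and 584 CPM in Gzma-poor and Gzma-rich barcodes of Cre- and 1437 and 1374 CPM in PHDTiEC, Cxcr6 had 1 UMI in the Gzma-poor barcodes of PHDTiEC, and Ltb stayed higher in the Gzma-poor barcodes of both libraries, at 887 and 1042 CPM. Without them the interval held 0 for Xcl1 and Cxcr6 in PHDTiEC, but not for Cd7 or Il7r in either library. Eomes was 262 CPM in Gzma-rich and 94.7 CPM in Gzma-poor barcodes of Cre- and 297 and 261 CPM in PHDTiEC, with intervals of the ratio that held 0 in both.

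Several markers of maturation were found in similar numbers of barcodes, but Itgam in fewer of PHDTiEC. Cd27, lost as NK cells mature, had a UMI in 16 of 47 Cre- and 18 of 50 PHDTiEC barcodes, Itgam in 15 and 9, and Klrg1 in 5 and 9. At least 1 of Itgam, Klrg1, S1pr5, Cx3cr1 and Cma1 had a UMI in 22 and 25. The 11 genes of the mature list summed to 300 and 476 UMIs, a log2 ratio of 0.68 (0.46 to 0.89), and to 245 and 443 without mixed barcodes, 0.57 (0.34 to 0.80). Gzmb and Irf8 together made up 171 and 305 of these UMIs, and Itgam went the other way, with 21 and 11. The 8 genes of the immature list summed to 753 and 699 UMIs, -0.10 (-0.25 to 0.05), and to 480 and 599 without mixed barcodes, 0.03 (-0.14 to 0.21). At least 1 gene of the ILC1 list had a UMI in 14 of 47 and 15 of 50 barcodes, but Itga1 was seen in 3 and 6 barcodes, of which 3 in each library were mixed, and Cxcr6 in 4 and 2. Of the barcodes with Cxcr6, 0 of 4 in Cre- and 1 of 2 in PHDTiEC had Eomes.

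Activating receptors and their adaptors stood at like levels in the libraries where UMIs were enough to compare. Of 21 such genes 7 had at least 50 UMIs, with a median log2 ratio of 0.18, and of -0.03 over 6 genes without mixed barcodes. Klrk1 had 101 and 114 UMIs (0.18, -0.21 to 0.59), the adaptor Tyrobp 349 and 402 (0.21, 0.00 to 0.43), Fcer1g 264 and 315 (0.27, 0.02 to 0.51) and Hcst 105 and 115 (0.14, -0.25 to 0.54). Below the limit of 50 UMIs, 2 genes of the list went opposite ways without mixed barcodes. Fcgr3 (CD16) had 11 and 1 UMIs in 8 and 1 barcodes (-3.74, -9.17 to -0.96). Crtam had 5 and 18 UMIs (1.56, 0.08 to 3.35), of which 12 lay in 1 PHDTiEC barcode. Of 19 genes listed as inhibitory receptors, 4 had at least 50 UMIs, Klrd1, Klre1, Klra1 and Klra7. All were higher in PHDTiEC, with a median of 0.49. UMIs do not show the partner chains of Klrd1 and Klre1. Over all genes with at least 50 UMIs, 695 of 1255 were higher. Klre1 was found in 33 of 47 Cre- barcodes, with 0 to 11 UMIs (median 2), and in 45 of 50 PHDTiEC barcodes, with 0 to 9 UMIs (median 3). Its log2 ratio was 0.58 (0.22 to 0.95), and 0.24 (-0.13 to 0.61) without mixed barcodes, where the median of the list was 0.16 and Klra7 was at -0.07. Klrc1, the NKG2A subunit, had 6 and 19 UMIs (1.67, 0.29 to 3.29) in 5 and 11 barcodes.

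Past a 2-fold difference lay 33 genes higher in PHDTiEC (2.63% of 1255) and 37 lower (2.95%). Of the 14 NK markers outside the rule with enough UMIs, 1 was past it, Gzmb. The 10 highest were mainly genes of stroma, endothelium or stress, and the barcode richest in each held between 40.4% and 98.5% of its PHDTiEC UMIs. The actin gene Acta2 had 1 and 119 UMIs, of which 115 lay in 1 PHDTiEC barcode, and Fabp4, a lipid carrier of capillary endothelium, had 16 and 130, of which 98.5% lay in 1 barcode. Tagln, Igfbp3, Sparcl1, Mt1, Hspb1, Ly6a, Flt1 and Plscr2 made up the rest, with log2 ratios from 3.27 to 1.60. Of the 10 lowest, Cltrn, Acsm2, Spink1, Slc4a4 and Gpx3 are expressed in proximal tubule, and 1 Cre- barcode held between 95.2% and 99.1% of the Cre- UMIs of each. C3, H2-Ab1, Cd74 and Lgmn, with Gzmc, completed them. Without mixed barcodes 4 genes were past 2-fold higher (0.552% of 724) and 6 lower (0.829%). The higher were Gzmb (1.30), Rrbp1 (1.13), Prpf4b (1.09) and Purb (1.08), and the lower included Gzmc (-5.14), Rdx (-1.24), Hmgb2 (-1.20), Sec61b (-1.08) and Anxa1 (-1.01).

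**Figure D4:**
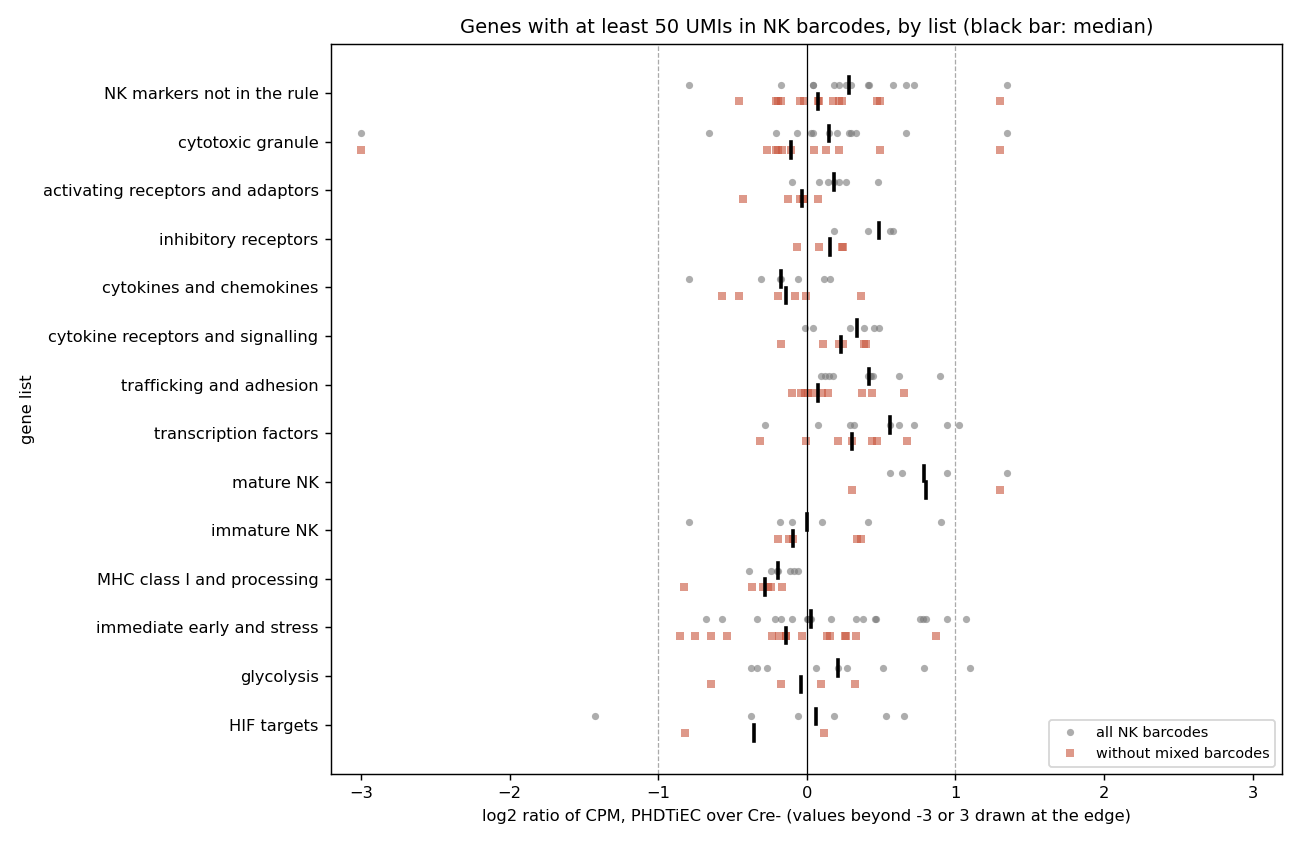
Log2 ratio of CPM, PHDTiEC over Cre-, of each gene with at least 50 UMIs, by gene list, over all NK barcodes (grey circles) and without mixed barcodes (red squares); black bars are medians and dashed lines mark 2-fold. The medians of the receptor, trafficking and transcription factor lists are lower without mixed barcodes, the mature list has 2 genes left, and Gzmb and Gzmc are the points past 2-fold in the NK lists that stay there.

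Over all NK barcodes, trafficking, signalling and transcription factor genes leaned towards PHDTiEC. They did so less without mixed barcodes, which made up a larger part of the Cre- total. All 10 trafficking genes with at least 50 UMIs (of 22) were higher, with a median of 0.42, which became 0.07 with 7 of 10 higher. Over all genes with at least 50 UMIs, 695 of 1255 were higher, and 349 of 724 without mixed barcodes. Ccr2, the receptor for Ccl2, had 71 and 131 UMIs in 32 and 41 barcodes (0.89, 0.47 to 1.33), and 63 and 121 without mixed barcodes (0.66, 0.21 to 1.12). Of 25 transcription factors 9 had enough UMIs, with a median of 0.56, and 0.30 over 7 without mixed barcodes. Id2, needed for innate lymphocyte development, had 109 and 220 UMIs in 35 and 47 barcodes (1.02, 0.69 to 1.37), and 87 and 169 without mixed barcodes (0.67, 0.29 to 1.06). Zeb2, which acts in terminal maturation, had 22 and 42 UMIs (0.94, 0.17 to 1.76), and 11 and 36 without mixed barcodes (1.43, 0.42 to 2.55). Eomes had 30 and 49 (0.72, 0.03 to 1.42; 0.47 without mixed barcodes) and Tbx21 17 and 17 (0.01, -1.05 to 1.07). The cytokine receptor list had a median of 0.34 over 6 genes, and 0.23 without mixed barcodes.

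Cytokine genes and MHC class I genes leaned towards Cre-, but neither list did with the cycling barcodes kept. That alternative added 1 barcode to each library, of 51281 UMIs in Cre-, which was also mixed, and of 6210 UMIs in PHDTiEC. These 2 barcodes held 9 and 16 UMIs of Ccl5 and joined NK totals of 222775 and 221188 UMIs. The Cre- total thus grew far more, which by itself lowers the Cre- CPM of genes scarce in the added barcode. Of 13 cytokines and chemokines 7 had enough UMIs, with a median of -0.17, and -0.14 over 6 without mixed barcodes, but 0.13 with cycling barcodes kept and 0.10 with at least 3 rule UMIs. Ccl5 had a log2 ratio of -0.17 (-0.27 to -0.08), and -0.45 (-0.55 to -0.36) without mixed barcodes, but 0.09 with cycling barcodes kept. Xcl1 had 415 and 238 UMIs (-0.79, -1.03 to -0.56), of which 198 lay in the mixed Cre- barcode rich in Ccl1, and 215 and 229 without mixed barcodes (-0.19, -0.47 to 0.08). Ifng, the main macrophage-activating product of NK cells, had 29 and 12 UMIs, each in 10 barcodes. All 7 class I and antigen processing genes with enough UMIs were lower in PHDTiEC, with a median of -0.20, and all 6 without mixed barcodes, -0.28. The median was 0.05 with cycling barcodes kept. Over all genes with enough UMIs, 560 of 1255 were lower, and 375 of 724 without mixed barcodes. H2-K1 had 513 and 479 UMIs (-0.09, -0.27 to 0.09) and B2m 460 and 422 (-0.11, -0.31 to 0.08), both with intervals that held 0, and without mixed barcodes -0.24 (-0.45 to -0.04) and -0.26 (-0.49 to -0.04). The NF-κB inhibitor gene Nfkbia had 139 and 93 UMIs (-0.57, -0.96 to -0.18), and 104 and 70 without mixed barcodes (-0.86, -1.31 to -0.41).

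Hypoxia-related genes showed no common direction in NK barcodes. Of all 1255 genes with at least 50 UMIs, 695 were higher in PHDTiEC and 560 lower. Of 20 targets of hypoxia-inducible factor (HIF), 6 had at least 50 UMIs, 3 higher and 3 lower, with a median of 0.06. The sum of the 20 targets was 408 and 373 UMIs (-0.12, -0.33 to 0.09). Without mixed barcodes 2 of them had enough UMIs and the sum was 156 and 145 UMIs (-0.39, -0.73 to -0.06). Ndrg1 had 103 and 38 UMIs, of which 90.3% of the Cre- UMIs lay in 1 barcode. Of 17 glycolysis genes 9 had enough UMIs, 6 higher and 3 lower, with a median of 0.21, and -0.04 over 4 genes without mixed barcodes. Gapdh had 149 and 171 UMIs (0.21, -0.12 to 0.54) and Ldha 60 and 85 (0.51, 0.02 to 1.01), which became 0.10 (-0.59 to 0.80) without mixed barcodes. Immediate early and stress genes, which respond to tissue dissociation, had a median of 0.03 over 21 of 26 genes and of -0.14 over 15 without mixed barcodes. Fos had 155 and 323 UMIs (1.07, 0.79 to 1.36), and 17 and 31 without mixed barcodes. Interferon-induced genes were sparse, since 2 of 24 had at least 50 UMIs (median 0.91), and Ly6a, 1 of these, had 33 and 112 UMIs over all NK barcodes but 7 and 9 without mixed barcodes. The part of mixed barcodes in these differences was measured only by leaving them out.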

How the data were processed

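Droplet-based single-cell RNA sequencing (10x Genomics, 3′ chemistry) was performed on 1 postischemic kidney per genotype. The authors deposited raw UMI counts per gene and barcode for each library, made with Cell Ranger 4 per the file headers and aligned to mm10 according to the submitters' processing notes. The count files hold 32285 genes, of which 32158 IDs matched GENCODE vM21 (GRCm38), and multimapped reads of close gene copies may be lost or split.

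Barcodes with 500 to 100000 UMIs, at least 200 genes, at most 50% mitochondrial UMIs and a complexity (log10 genes divided by log10 UMIs) of 0.8 or more were kept. NK members were found by the rule given in the report. T barcodes had at least 2 UMIs of the CD3 chains and no UMI of Trdc, Tcrg-C1, Tcrg-C2 or Tcrg-C4. The γδ T barcodes had at least 2 CD3 UMIs and at least 1 UMI of Trdc or Tcrg-C1. Both classes met the C1q and cycling limits of the rule. Macrophages had at least 10 C1q UMIs per 10000, and endothelial barcodes at least 2 UMIs of Pecam1 and Cdh5 and none of Ptprc. The rule, the gene lists and the genes named were chosen with earlier results of these data known, and the limit of 10 Gzma UMIs and the limit of 10 Gzmc or Ccl1 UMIs were set after values were seen. UMIs were summed over the NK barcodes of a library and divided by their total (CPM). Each ratio is PHDTiEC over Cre-, with a 95% Clopper-Pearson interval of the split of UMIs, and levels have exact Poisson intervals. UMIs of 1 library are not replicates, so these intervals cover counting error only and no test was run. A gene entered the counts and list medians if the libraries together held 50 or more of its UMIs. Besides the listed genes, the 10 highest and 10 lowest ratios were named, without mitochondrial, ribosomal protein, haemoglobin, rule and Y-linked genes and Xist, and the 15 highest ratios of NK over T barcodes. Expected shares at 1000 UMIs were computed from each barcode's counts, leaving shallower barcodes out. The ratio script was tested on simulated data. Python 3.11.15, numpy 2.4.6, scipy 1.17.1, pandas 2.3.3, matplotlib 3.10.9, R 4.3.3 and edgeR 4.0.16 (TMM scaling only) were used. Promoters came from RefSeq.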

Additional observations from a re-analysis of the deposited data

How the results depend on the processing

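Counts of genes past 2-fold (33 higher and 37 lower in PHDTiEC) depended most on the processing. They were 20 higher with at least 3 rule UMIs, with at least 1 UMI of Ncr1 or Klrb1c, and with TMM scaling, which moved all ratios alike. They were 4 higher and 6 lower without mixed barcodes, 51 and 91 with cycling barcodes kept (1 more barcode per library), 83 and 215 with free RNA subtracted, 219 and 151 with at least 20 UMIs per gene, 8 and 15 with at least 100, and 17 and 10 without the barcode richest in each gene. With NK barcodes of at most 10000 UMIs, an alternative added after seeing the data, they were 8 and 18. Among list medians, inhibitory receptors gave 0.60 with at least 3 rule UMIs and with free RNA subtracted, 0.66 with Ncr1 or Klrb1c, 0.16 without mixed barcodes and 0.74 with cycling barcodes kept. Cytokine receptors gave 0.50 with at least 3 rule UMIs and 0.61 with cycling barcodes kept, and trafficking genes gave 0.0739 without mixed barcodes and 0.66 with cycling barcodes kept. Immediate early genes gave -0.16 with at least 3 rule UMIs and with free RNA subtracted, and -0.14 without mixed barcodes. MHC class I genes gave -0.0486 with Ncr1 or Klrb1c and 0.0535 with cycling barcodes kept, granule genes gave 0.41 with cycling barcodes kept, and the mature list gave 1.35 with Ncr1 or Klrb1c. Interferon-induced genes gave -0.20 without mixed barcodes, when 1 gene was left, and 0.0219 with at most 10000 UMIs. The NK share was 0.974% and 1.02% of barcodes with a Ptprc UMI, and 8.19% and 7.32% of NK, T and γδ T barcodes. Mt1 turned to -0.52 with cycling barcodes kept, and Gpx3 to 0.57 without its richest barcode and to 1.61 with at most 10000 UMIs. Beyond the change in total UMIs when barcodes were added or left out, the cause of these shifts was not tested. Another 275 values of comparisons stayed within a limit. The limit was counting error for shares and targeted genes, and 1.5 times for counts of genes. For list medians it was an interval from the ranked ratios of the list's genes, not counting error. With few genes that interval is wide. It held the change of the cytokine median from -0.17 to 0.13 with cycling barcodes kept. Of the values of single genes and the like, 111 moved beyond their limit, 3 reversed and 1621 did neither. Gzmb had a log2 ratio of 0.41 without the 4 PHDTiEC barcodes richest in it and of 1.14 without the 4 richest of each library, alternatives added after seeing the data, as was leaving Gzma out of the granule list. No paired analysis was possible because each genotype had 1 library and no result came from a test. With 1 mouse per genotype, mouse, library and genotype cannot be told apart, and ratios of genes under 50 UMIs have wide intervals.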
